A study of Mus musculus with 17 samples.

Results

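The genes described here are the 44 protein-coding genes of cell division, the centrosome and the spindle that the deposited RNA sequencing table of mouse oocytes lists, out of 2615 listed genes of which 2259 are protein-coding. They were chosen by symbol alone, as genes whose names begin with Anapc, Aurk, Bub, Cdc, Cdk, Cenp, Cep, Ccn, Espl, Haus, Kif, Mad, Nek, Plk or Tub. Of these 15 name stems, 13 have a listed gene, and Aurk and Plk have none. Some of the genes carry such a name but act elsewhere in the cell, and these are pointed out below. Control oocytes came from *Ehmt2*(flox/flox) females, and *Ehmt2*GKO oocytes from *Ehmt2*(flox/flox); Gdf9-Cre females, in which *Ehmt2*, the gene of the histone H3 lysine 9 methyltransferase G9a, is deleted. The *Gdf9* promoter drives Cre in oocytes from the primordial follicle stage onwards, so the oocytes grew without the gene. All females were C57BL/6J, 8 weeks old, and both groups carried the floxed allele. The labels give the oocytes as MII, arrested in the second meiotic metaphase, and the study's text describes them as superovulated. The study also describes *Ehmt2*GKO oocytes that stop at the first meiotic metaphase, so the groups may differ in meiotic stage. The stage of the oocytes in each library was not given in the sources used here, and genotype and stage cannot be told apart in any comparison below. There were 3 libraries per group (control replicates 1, 2 and 6, *Ehmt2*GKO replicates 3, 4 and 5), made from polyadenylated RNA that was amplified. Every rise, fall and level below is therefore one of reads from polyadenylated RNA. A change in the amount of a transcript and a change in its poly(A) tail cannot be told apart in them. How many oocytes or females went into a library was not given in the sources used here, so the p-values measure the spread between these libraries, which may be technical.

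In meiosis the anaphase-promoting complex (APC/C), a ubiquitin ligase of many subunits, marks securin and B-type cyclins for destruction. Separase is then released and opens cohesin, and the chromosomes part. The spindle assembly checkpoint holds the APC/C back until the kinetochores are attached to spindle microtubules. Cyclins bound to cyclin-dependent kinases drive entry into each division. Mouse oocytes build their spindle without centrioles, from acentriolar microtubule organizing centres. A fully grown oocyte transcribes little and divides on mRNA and protein stored during growth.

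Each of the 2615 listed genes has an adjusted p below 0.05 in the authors' own comparison of these 6 libraries, so every gene described below had already been picked for a difference between the groups. The calls that follow restate that choice and describe its size and direction. Genes that are not listed, among them *Ehmt2* itself and the division genes *Cdk1*, *Ccnb2*, *Plk1* and *Aurka*, were not analysed here, and the deletion could not be checked from the counts. The reads on listed genes summed to between 4060653 and 4258350 per library. These sums cover the listed genes only, and the total depth is unknown. Of 25 oocyte marker genes, 7 are listed, and their summed normalised count was 46465 to 58977 in control and 54594 to 58265 in *Ehmt2*GKO libraries. These sums overlap, but the single markers did not move together. Of the 7, 5 fell, *Zp3* (log2 fold change -1.05, SE 0.10), *Zp1* (-0.86, SE 0.17), *Oog1* (-0.51, SE 0.11), *Zp2* (-0.40, SE 0.13) and *Tle6* (-0.34, SE 0.11), and 2 rose, *Nlrp5* (0.42, SE 0.13) and *Padi6* (0.48, SE 0.10). *Nlrp5* is the most abundant of them in every library. Of 24 markers of cumulus and granulosa cells, 3 are listed (*Kitl*, *Runx2* and *Ptgs2*), none of them at 0 in any library, with summed normalised counts of 362 to 463 and 413 to 483. *Kitl* was the most abundant of the 3 in every library and fell (-0.63, SE 0.16), while *Runx2* rose (0.84, SE 0.29). *Ptgs2* rose from 6, 10 and 14 reads in control to 107, 74 and 59 in *Ehmt2*GKO libraries, 8.44-fold in mean normalised count. Its log2 fold change in edgeR's fit, which scales the libraries otherwise, was 2.98 (SE 0.38, adjusted p = 5.46e-06), more than that of any tested gene described below. The part of such cells in the results was not tested. In such pooled samples, fewer cells of a type and less RNA per cell cannot be told apart.

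Normalised read counts are the deposited counts divided by median-ratio size factors over the listed genes. Log2 fold changes (*Ehmt2*GKO over control), their standard errors (SE) and adjusted p-values come from edgeR's quasi-likelihood test with Benjamini-Hochberg adjustment over the 2516 listed genes that passed the filter on low counts. That test scales the libraries by TMM factors, which give the members larger falls and smaller rises than median-ratio factors do. With median-ratio factors, edgeR's log2 fold change was -1.24 for *Ccnb3* and 0.50 for *Ccnb1*, beside -1.33 and 0.41 with TMM factors. A gene is said to rise or fall where its adjusted p was below 0.01, and to be called where it also changed over 2-fold. Of the 44 genes, 43 were tested and 42 passed, 20 of them higher and 22 lower in *Ehmt2*GKO oocytes. These are 46.5% and 51.2% of the tested members, beside 49.3% higher and 49.5% lower among all tested genes, and they say nothing particular about cell division. Over 2-fold, 0 members were called higher and 6 lower (14% of those tested), beside 18.7% and 16.9% of all tested genes. All members are protein-coding, and of the 2198 protein-coding genes tested 385 were called higher and 319 lower. By the ratio of mean normalised counts, 5 tested members were over 2-fold. With DESeq2 and with limma voom, run after the same filter, the count called higher was 0 as well. In edgeR's fit 0 tested members were over 2-fold higher at an unadjusted p below 0.05, since the largest rise of a tested member was 0.62 on the log2 scale. Without the filter 1 member, *Kif26b*, was called higher. Each member kept its direction in all 13 alternative fits run, but 22 of the 42 had an adjusted p above 0.01 in at least 1 of them, and without *Ehmt2*GKO replicate 5 the members past the test numbered 25, 10 of them higher. The median absolute log2 fold change was 0.55 over the tested members and 0.76 over all tested genes. The members were also the more abundant genes, with a median normalised count over both groups of 814 against 359.5 for all tested genes. In the plot of abundance against change, most members lie close to the inner edge left by the selection.

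**Figure D1:**
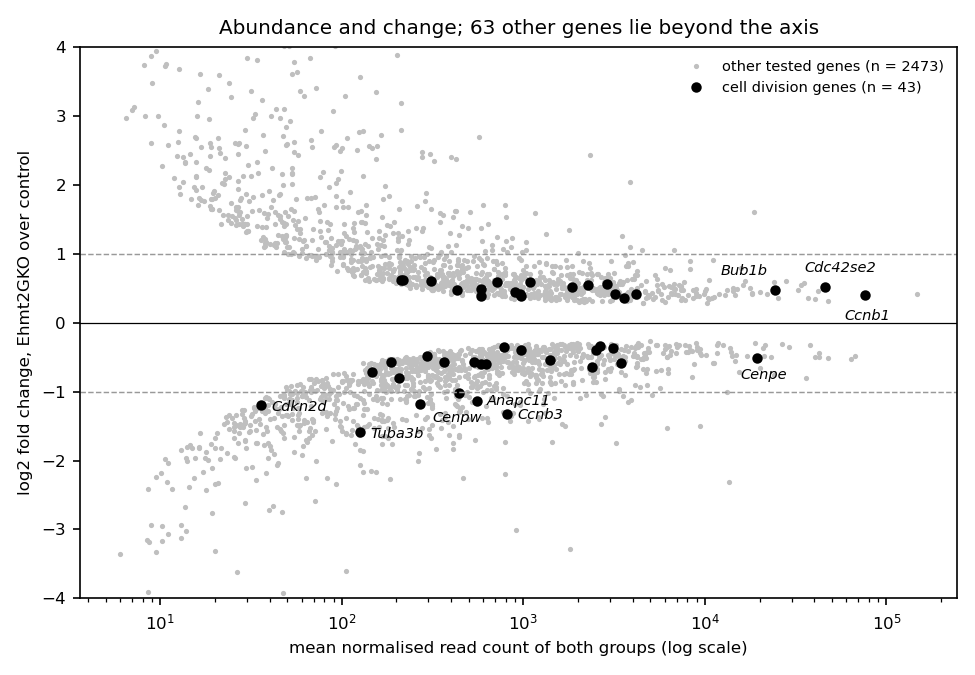
Log2 fold change (*Ehmt2*GKO over control) against the mean normalised read count of both groups (log scale) for 43 tested cell division genes (black) and 2473 other tested genes (grey), with dashed lines at 2-fold. The empty band around 0 shows the selection of the table, and 35 of the 43 members lie within 0.7 of 0 on the log2 scale.

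The 2 listed B-type cyclin genes changed in opposite directions. Below are the 250 bases upstream of the RefSeq start of *Ccnb3* and *Ccnb1*, and of 2 further genes that moved in opposite directions, *Cenpw* (lower) and *Bub1b* (higher), each read 5′ to 3′ on the strand of the gene from GRCm38.p6. They are shown so that the start of a gene that fell can be set beside that of a gene that rose. Capitals mark 2 kinds of motif that are known from cell cycle promoters, searched on both strands: the CCAAT box (CCAAT, or ATTGG on the other strand) and the cell cycle homology region, CHR (TTTGAA or TTCGAA, or TTCAAA on the other strand).
*Ccnb3*, chrX:7041620-7041869, minus strand: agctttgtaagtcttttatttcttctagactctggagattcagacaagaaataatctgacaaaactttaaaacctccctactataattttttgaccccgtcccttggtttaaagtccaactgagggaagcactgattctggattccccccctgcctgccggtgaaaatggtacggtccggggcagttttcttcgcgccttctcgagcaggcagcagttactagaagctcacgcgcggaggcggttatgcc
*Ccnb1*, chr13:100786487-100786736, minus strand: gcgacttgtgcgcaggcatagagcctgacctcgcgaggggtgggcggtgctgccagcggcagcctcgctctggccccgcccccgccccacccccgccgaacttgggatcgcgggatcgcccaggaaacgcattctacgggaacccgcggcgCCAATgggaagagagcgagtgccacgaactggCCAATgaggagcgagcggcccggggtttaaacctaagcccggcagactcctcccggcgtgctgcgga
*Cenpw*, chr10:30200541-30200790, minus strand: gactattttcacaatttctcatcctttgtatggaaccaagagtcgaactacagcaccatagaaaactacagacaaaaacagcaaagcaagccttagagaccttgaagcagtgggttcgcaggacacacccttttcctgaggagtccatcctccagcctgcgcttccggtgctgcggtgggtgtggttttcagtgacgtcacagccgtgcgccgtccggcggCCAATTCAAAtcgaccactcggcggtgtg
*Bub1b*, chr2:118597961-118598210, plus strand: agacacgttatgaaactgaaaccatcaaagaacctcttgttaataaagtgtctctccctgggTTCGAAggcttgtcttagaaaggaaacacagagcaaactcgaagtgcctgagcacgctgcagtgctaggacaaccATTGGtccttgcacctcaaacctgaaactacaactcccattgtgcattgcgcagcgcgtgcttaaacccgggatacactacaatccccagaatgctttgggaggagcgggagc

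The *Ccnb3* window held neither motif. The *Ccnb1* window held 2 CCAAT boxes in the same orientation, the *Cenpw* window a CCAAT box that runs into a CHR on the other strand and shares a base with it, and the *Bub1b* window a CHR and an inverted CCAAT box. Over the whole 300-base window, which adds 50 bases after the start, *Bub1b* had a second CHR and the other 3 genes no further match. Another motif, the E2F site (TTTCCCGC, TTTGGCGC, TTTGCCGC or TTTCGCGC), was in none of the 4 windows. Of 32851 promoter windows of this length in the RefSeq table, 37.4% held a CCAAT box, 19.2% a CHR and 2.26% an E2F site. Only 35 of the 44 members had a window (79.5%), so a comparison of motif shares between members and other genes is void. For *Ccnb1* and *Cenpw*, the RefSeq start lies inside the gene as the deposited table bounds it.

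Of the 8 listed cyclin genes, 6 rose and 2 fell. *Ccnb3* (ENSMUSG00000051592, chromosome X, 6979652 to 7041619, minus strand, 14 exons), which encodes cyclin B3, had normalised read counts of 1266, 1148 and 1014 in control replicates 1, 2 and 6. In *Ehmt2*GKO replicates 3, 4 and 5 it had 485, 533 and 436. Every *Ehmt2*GKO library lay below every control library, and the log2 fold change was -1.33 (SE 0.13, adjusted p = 3.04e-07). *Ccnb1* (ENSMUSG00000041431, chromosome 13, 100778650 to 100786570, minus strand), which encodes cyclin B1, the cyclin whose destruction lets an oocyte leave metaphase, had 63205, 62555 and 62922 normalised counts in control libraries. It had 83567, 97670 and 85991 in *Ehmt2*GKO libraries, all above the control libraries, and the log2 fold change was 0.41 (SE 0.10, adjusted p = 0.00169). Transcripts of 3 processed pseudogenes are 97.3% to 99.2% identical to that of *Ccnb1* over 52% of its length, so the counting could have moved reads between them and the *Ccnb1* count is uncertain to that extent. One of them, *Ccnb1-ps*, is itself listed with 9.93 to 14.9 reads per 1000 *Ccnb1* reads in control and 11.8 to 15.9 in *Ehmt2*GKO libraries, which overlap.

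No gene is known to be unchanged in a table of this kind, so the counts of one member were also set against those of another in the same library, which does not depend on the scaling. The pairs were chosen after their values were seen, and because their genes had moved in opposite directions. The ratios are therefore a description of size, with no test, and add no support to the single changes. For every 1000 reads on *Ccnb1*, the control libraries had 20.0, 18.4 and 16.1 reads on *Ccnb3*, and the *Ehmt2*GKO libraries 5.81, 5.45 and 5.07. The mean ratio was 3.34-fold higher in control oocytes (18.2 ± 1.96 against 5.44 ± 0.372, SD, n = 3 each). Against *Ccna2* in place of *Ccnb1*, the ratio was also 3.34-fold higher in control libraries (331 ± 32.8 against 98.99 ± 16.3 *Ccnb3* reads per 1000 *Ccna2* reads, SD, n = 3 each). *Ccna2* has no near-identical copy, but the annotated gene *Exosc9* overlaps it on the opposite strand.

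The cyclins of DNA replication and mitotic entry rose with *Ccnb1*. *Ccna2*, which encodes cyclin A2, had 3458, 3540 and 3367 normalised counts in control and 4500, 4890 and 5434 in *Ehmt2*GKO libraries (log2 fold change 0.42, SE 0.10, adjusted p = 0.00102). *Ccne2*, which encodes cyclin E2 of the G1 to S transition, had 2089, 2192 and 2454 in control and 3300, 3683 and 3653 in *Ehmt2*GKO libraries (0.57, SE 0.10, adjusted p = 1.03e-04). Neither gene's groups overlapped. *Ccnd3*, the cyclin D3 gene, was scarce, with 199 to 278 normalised counts in control and 323 to 461 in *Ehmt2*GKO libraries (log2 fold change 0.60, SE 0.17). Its rise rested on single libraries, since the adjusted p was 0.0171 without control replicate 1 and 0.0211 without *Ehmt2*GKO replicate 5. Genes of cyclins that act in transcription and splicing also rose. *Ccnc*, whose cyclin C belongs to the Mediator complex, had a log2 fold change of 0.38 (SE 0.12), and *Ccnl1*, whose cyclin L1 works in pre-mRNA splicing, one of 0.41 (SE 0.10). The rise of *Ccnc* did not pass without control replicate 2 or 6 or any 1 *Ehmt2*GKO library, with an adjusted p of 0.0114 to 0.0405. The other cyclin gene to fall was *Ccnyl1*, cyclin Y-like 1, with a log2 fold change of -0.34 (SE 0.11). It was the smallest change of any tested member, and it did not pass without control replicate 1 or 6 or *Ehmt2*GKO replicate 3 or 5. The normalised counts of *Ccnyl1* overlapped between the groups (2609 to 3251 in control, 2227 to 2654 in *Ehmt2*GKO).

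Of the remaining names beginning with Ccn or Cdk, 1 rose and 4 fell. *Ccnb1ip1*, also known as Hei10, is a ubiquitin ligase gene of meiotic crossover formation and not a cyclin, and with *Cenpl* it rose most of the tested members on the log2 scale. Its normalised counts were 168, 171 and 142 in control and 252, 267 and 270 in *Ehmt2*GKO libraries (0.62, SE 0.17, adjusted p = 0.00252), with no overlap. Without control replicate 6 its adjusted p was 0.0135. *Cdkn2d*, which encodes p19INK4d, an inhibitor of the cyclin D kinases, had the fewest reads of any tested member, with 54.0, 58.0 and 35.8 normalised counts in control and 29.4, 15.9 and 23.1 in *Ehmt2*GKO libraries (log2 fold change -1.19, SE 0.35, adjusted p = 0.0043). Its standard error was the largest of the members, and its adjusted p was between 0.0156 and 0.0221 without control replicate 1, control replicate 2, *Ehmt2*GKO replicate 4 or *Ehmt2*GKO replicate 5. *Cdk17*, a kinase of the PCTAIRE family, fell by 0.57 (SE 0.16), *Cdkl2*, a kinase resembling the cyclin-dependent kinases, fell by 0.48 (SE 0.16), and *Cdkn2aipnl* fell by 0.39 (SE 0.11), all on the log2 scale. These falls did not pass without control replicate 1 or *Ehmt2*GKO replicate 4 for *Cdk17*, without control replicate 2 or 6 or *Ehmt2*GKO replicate 4 for *Cdkl2*, and without control replicate 2 or *Ehmt2*GKO replicate 5 for *Cdkn2aipnl*. No listed gene encodes a kinase that pairs with cyclin A or B.

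**Figure D2:**
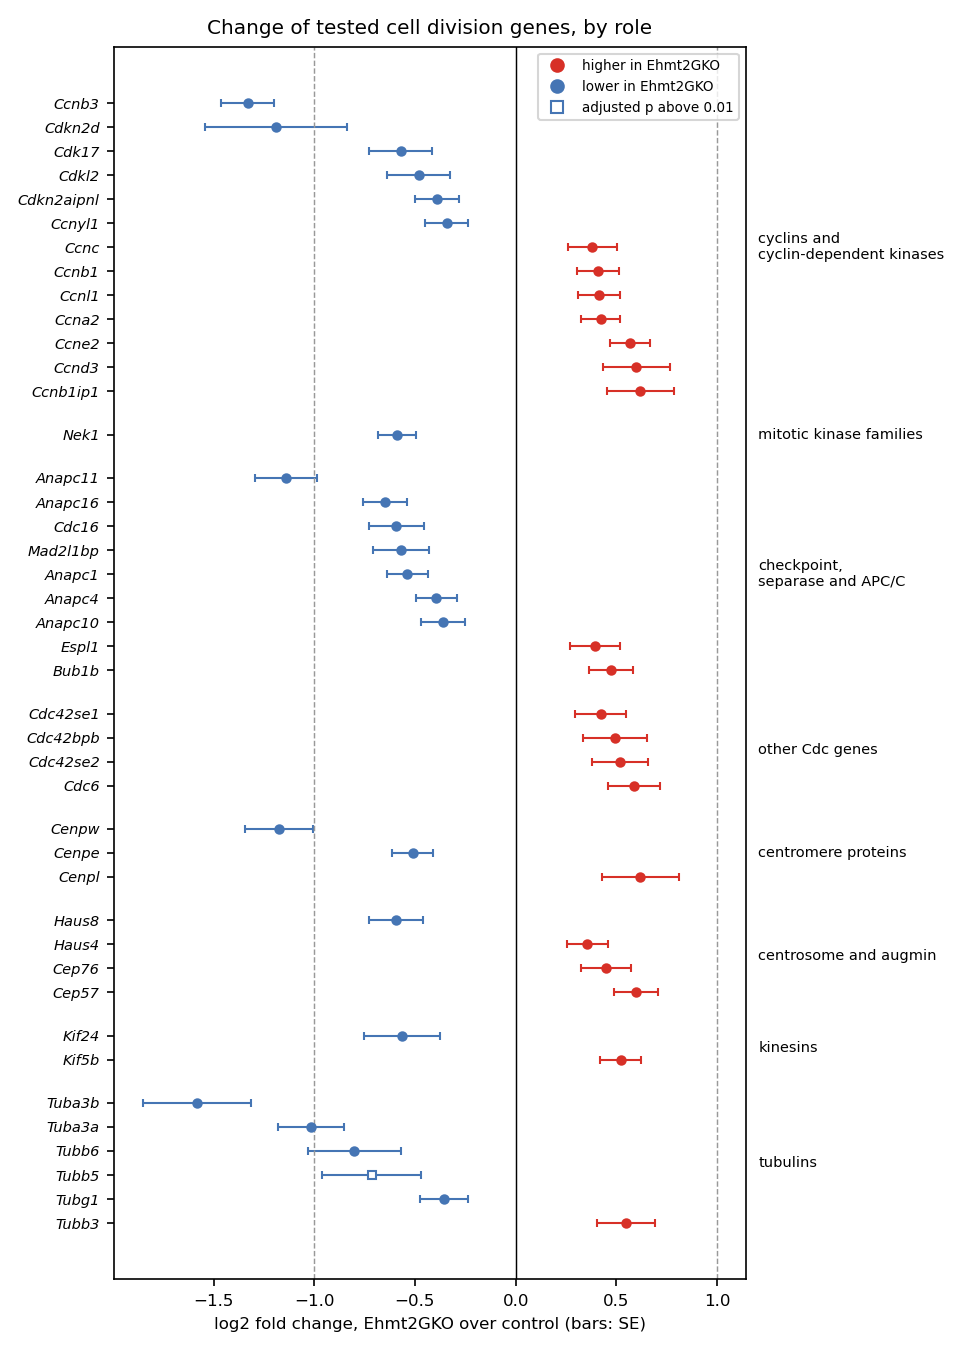
Log2 fold change (*Ehmt2*GKO over control, bars are standard errors of edgeR's fit, 3 libraries per group) of 42 of the 43 tested genes, grouped by role, with dashed lines at 2-fold. All 6 listed APC/C subunits lie left of 0, while 6 of the 8 cyclin genes lie right of it, and no gene lies right of 1. Every listed gene had been selected for a difference, and of all tested genes 49.5% fell and 49.3% rose.

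All 6 listed subunits of the APC/C fell, and their median log2 fold change was -0.57. That of all tested genes was -0.32, but it turned positive (0.24 to 0.27) without any 1 control library, since few listed genes lie near 0. Over the 2198 tested genes that are protein-coding, as the subunits are, the median was 0.33. The listed subunits were *Anapc11*, *Anapc16*, *Cdc16*, *Anapc1*, *Anapc4* and *Anapc10*. The table holds only subunits that the authors' test selected, so this count says nothing of the subunits that are not listed. *Anapc11* (ENSMUSG00000025135, chromosome 11, 120598421 to 120608198, plus strand) encodes the RING subunit that recruits the ubiquitin-conjugating enzyme. It had 842, 719 and 672 normalised counts in control and 414, 287 and 378 in *Ehmt2*GKO libraries, with a log2 fold change of -1.14 (SE 0.16, adjusted p = 9.96e-06). It was the only subunit called over 2-fold, and the highest *Ehmt2*GKO library was well under the lowest control library.

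*Anapc16*, a small subunit, had 2403, 2832 and 3255 normalised counts in control and 1867, 1955 and 1946 in *Ehmt2*GKO libraries (log2 fold change -0.65, SE 0.11, adjusted p = 7.58e-05). *Cdc16*, one of the tetratricopeptide repeat subunits, had 607, 632 and 808 in control and 499, 436 and 510 in *Ehmt2*GKO libraries (-0.59, SE 0.14, adjusted p = 8.85e-04). *Anapc1*, the largest scaffold subunit, had 1611, 1523 and 1697 in control and 1185, 1204 and 1156 in *Ehmt2*GKO libraries (-0.54, SE 0.10, adjusted p = 2.10e-04). In these 3 genes the control libraries were again all above the *Ehmt2*GKO libraries, and the *Ehmt2*GKO libraries lay closer together. *Anapc4*, also of the platform, fell by 0.39 (SE 0.10), and *Anapc10*, which helps to bind substrates, fell by 0.36 (SE 0.11) on the log2 scale. Both were sensitive to the scaling, since with median-ratio size factors their adjusted p was 0.0169 and 0.0295. The fall also did not pass without *Ehmt2*GKO replicate 3 for *Anapc4*, and without control replicate 1 or 6 or *Ehmt2*GKO replicate 5 for *Anapc10*. By the span of the whole gene, *Anapc10* has 2 overlapping annotated genes on the opposite strand and *Anapc16* has 1, *Ascc1*. The counting was not stated to use strand, so where exons overlap reads of the pairs may not be told apart.

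The 6 subunits together had 182, 186.5 and 208 reads for every 1000 *Ccnb1* reads in control libraries and 107, 96.3 and 102 in *Ehmt2*GKO libraries. The mean was 1.89-fold higher in control oocytes (192 ± 13.9 against 102 ± 5.45, SD, n = 3 each). Set against *Bub1b*, the same sum was 1.96-fold higher in control libraries (mean 617 against 316 reads per 1000 *Bub1b* reads, with no overlap between libraries). As a share of all listed reads, the subunits had 2.88, 2.90 and 3.18 per 1000 in control and 2.18, 2.11 and 1.96 per 1000 in *Ehmt2*GKO libraries, a 1.43-fold difference in the same direction. The ratio to *Ccnb1* or *Bub1b* was therefore the larger because subunit and partner moved in opposite directions.

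**Figure D3:**
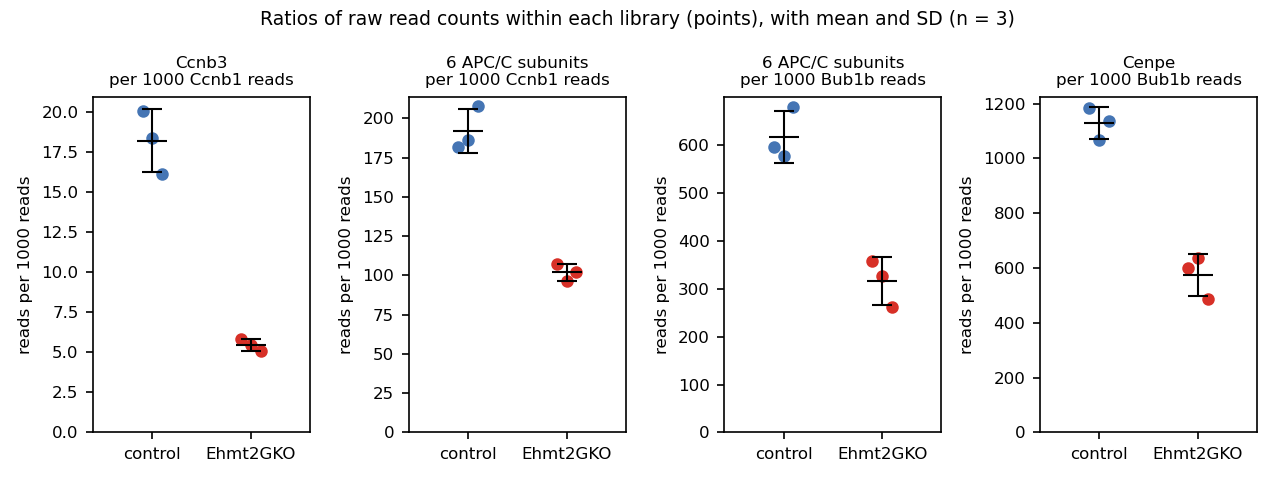
Reads on one gene or gene group for every 1000 reads on another in the same library (points, 3 per group, bars are mean ± SD). The *Ehmt2*GKO libraries sit below the control libraries in all 4 ratios, for example at 5.07 to 5.81 against 16.1 to 20.0 *Ccnb3* reads per 1000 *Ccnb1* reads.

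The checkpoint genes moved in both directions. *Bub1b* (ENSMUSG00000040084, chromosome 2, 118598211 to 118641591, plus strand), which encodes BUBR1, a part of the mitotic checkpoint complex that inhibits the APC/C, had 19292, 20229 and 19269 normalised counts in control libraries. It had 24956, 28744 and 33659 in *Ehmt2*GKO libraries, a wider spread but no overlap (log2 fold change 0.48, SE 0.11, adjusted p = 8.85e-04). *Mad2l1bp*, which encodes p31comet, a protein that helps to take the checkpoint complex apart, fell. Its normalised counts were 692, 511 and 665 in control and 438, 469 and 436 in *Ehmt2*GKO libraries (-0.57, SE 0.14, adjusted p = 0.00131). *Espl1*, the separase gene, had 859, 839 and 730 in control and 983, 1125 and 1305 in *Ehmt2*GKO libraries (0.39, SE 0.12, adjusted p = 0.00593). The rise of *Espl1* did not pass in 4 of the 6 fits that left out a library (control replicate 2 or 6, *Ehmt2*GKO replicate 4 or 5), with an adjusted p of up to 0.0339 (edgeR) and the same direction.

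Of 3 listed centromere protein genes, 2 fell and 1 rose. *Cenpw* (ENSMUSG00000075266, chromosome 10, 30194569 to 30200560, minus strand), whose histone-fold protein joins CENP-T in the inner kinetochore, had 342, 388 and 363 normalised counts in control libraries. It had 193, 184 and 138 in *Ehmt2*GKO libraries, with a log2 fold change of -1.17 (SE 0.17, adjusted p = 1.76e-05). *Cenpe*, the kinesin that carries chromosomes to the spindle equator, had 22846, 21604 and 21903 in control and 15005, 18251 and 16409 in *Ehmt2*GKO libraries (-0.51, SE 0.10, adjusted p = 3.09e-04). Neither gene's groups overlapped. Since *Cenpe* and *Bub1b* are both abundant, their ratio rests on many reads, and it was 1130 ± 58.5 *Cenpe* reads per 1000 *Bub1b* reads in control and 575 ± 77.3 in *Ehmt2*GKO libraries (SD, n = 3 each). The ratio compares libraries and not the levels of the 2 genes, whose lengths differ. *Cenpl*, another inner kinetochore gene, was scarce and rose from 125, 159 and 212 to 290, 271 and 248 normalised counts (0.62, SE 0.19, adjusted p = 0.00559). Its adjusted p was above 0.01 without control replicate 1 or 2 or *Ehmt2*GKO replicate 3 or 4, and reached 0.0334.

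**Figure D4:**
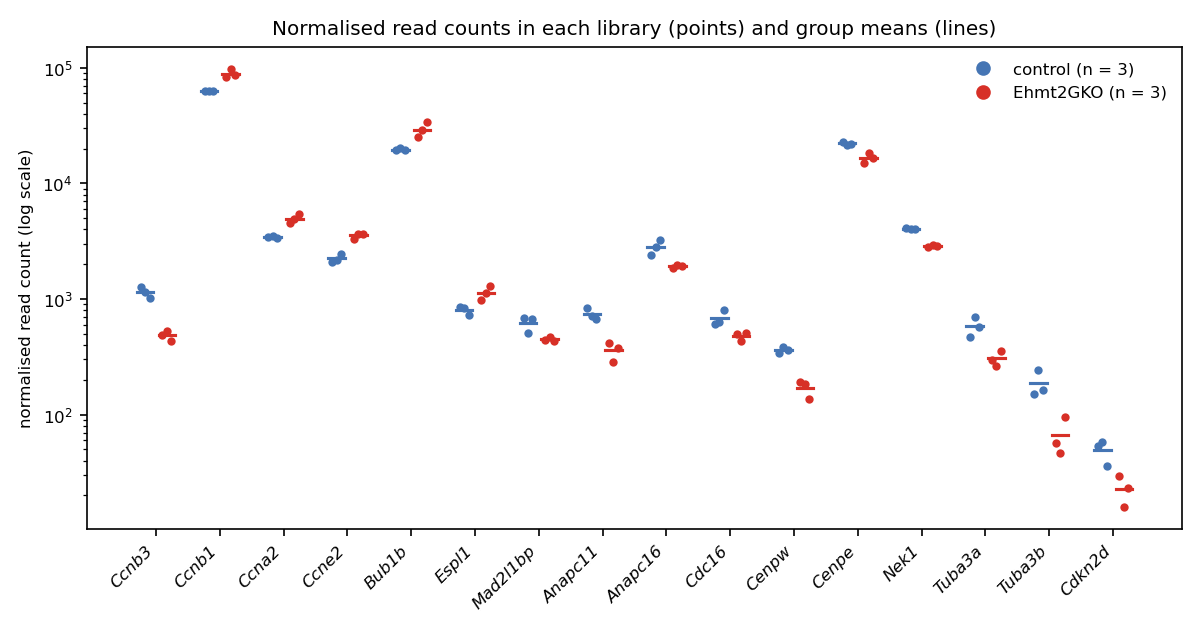
Normalised read counts (log scale) of 16 cell division genes in each library (points, 3 control in blue and 3 *Ehmt2*GKO in red), with lines at the group means. In each of these genes the 2 groups do not overlap, as in 96.1% of all listed genes, which were selected for a difference. The changes are small beside the range of abundance between genes, from *Cdkn2d* (15.9 to 58.0) to *Ccnb1* (62555 to 97670).

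Of 6 listed tubulin genes, 4 fell, 1 rose and *Tubb5* did not pass the test. *Tuba3b* (ENSMUSG00000067338, chromosome 6, 145615757 to 145621479, plus strand) had the largest change of the 43 tested members on the log2 scale. Its normalised counts were 152, 243 and 163 in control and 56.9, 46.8 and 95.5 in *Ehmt2*GKO libraries (-1.58, SE 0.27, adjusted p = 7.93e-05). *Tuba3a*, on the same chromosome from 125278274 to 125286042 on the minus strand, had 465, 701 and 578 in control and 296, 266 and 357 in *Ehmt2*GKO libraries (-1.02, SE 0.16, adjusted p = 4.58e-05). Both encode alpha-tubulin, their transcripts are 96.6% identical, and the counting could have split reads between them. Their separate fold changes are therefore uncertain. *Tuba3a* was not called over 2-fold in 6 of the 13 alternatives run for it, with log2 fold changes of up to -0.86, while *Tuba3b* was called in all 13. The mean normalised count of *Tuba3a* was 1.90-fold higher in control libraries, which is under 2-fold.

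The beta-tubulin genes differed among themselves. *Tubb6* had 231, 335 and 200 normalised counts in control and 197, 112 and 159 in *Ehmt2*GKO libraries (-0.80, SE 0.23, adjusted p = 0.00373), with only a narrow gap between control replicate 6 and *Ehmt2*GKO replicate 3. Its adjusted p was 0.0127 to 0.0303 without control replicate 2 or *Ehmt2*GKO replicate 4 or 5. *Tubb5* had 212, 188 and 134 in control and 149, 78.7 and 119 in *Ehmt2*GKO libraries (-0.72, SE 0.25, adjusted p = 0.0103), and the groups overlapped. *Tubb3*, best known as a neuronal beta-tubulin, had 1741, 2052 and 1532 in control and 2660, 2192 and 3465 in *Ehmt2*GKO libraries (0.55, SE 0.15, adjusted p = 0.00229). It overlaps the annotated gene *Gm20388* on the same strand, so its count may include reads of that gene, and its adjusted p was above 0.01 without control replicate 6 or *Ehmt2*GKO replicate 5. *Tubg1*, the gamma-tubulin gene of microtubule nucleation, had 757 to 971 normalised counts in control and 682 to 735 in *Ehmt2*GKO libraries (-0.36, SE 0.12, adjusted p = 0.00835). This fall was among the least stable, with an adjusted p of up to 0.0532 (DESeq2), and of the 6 fits without a library it passed only in that without control replicate 1.

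Augmin brings gamma-tubulin to existing microtubules so that new ones branch off, and its 2 listed subunits moved in opposite directions. *Haus8* had 670, 715 and 807 normalised counts in control and 458, 472 and 620 in *Ehmt2*GKO libraries (-0.59, SE 0.14, adjusted p = 8.23e-04). *Haus4* had 3062, 3086 and 2907 in control and 4002, 3745 and 4630 in *Ehmt2*GKO libraries (0.36, SE 0.10, adjusted p = 0.00391). The rise of *Haus4* did not pass without control replicate 2 or 6 or *Ehmt2*GKO replicate 3 or 5 (adjusted p 0.0107 to 0.0185), while *Haus8* passed in all 13 alternatives. Among the Cep genes, *Cep57*, which encodes a centrosomal microtubule-binding protein, rose by 0.60 (SE 0.11), and *Cep76*, a brake on centriole duplication, rose by 0.45 (SE 0.12) on the log2 scale. *Cep76* did not pass without control replicate 1 or 2 or *Ehmt2*GKO replicate 4 or 5 (adjusted p 0.0113 to 0.0188). *Cep57* had 907, 757 and 847 normalised counts in control and 1347, 1373 and 1331 in *Ehmt2*GKO libraries. *Nek1*, of the NIMA-related kinases and known for roles in cilia and DNA repair, had 4082, 4035 and 4002 in control and 2790, 2930 and 2863 in *Ehmt2*GKO libraries (-0.59, SE 0.09, adjusted p = 4.58e-05). Replicates differed little in this gene, which has 5 overlapping annotated genes, 2 of them on the opposite strand.

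*Kif5b*, a conventional kinesin heavy chain of cargo transport and not a spindle motor, rose from 1379, 1561 and 1455 to 2099, 2282 and 2347 normalised counts (0.52, SE 0.10, adjusted p = 2.35e-04). *Kif24*, a kinesin that acts on centriolar microtubules, fell by 0.56 on the log2 scale (SE 0.19, adjusted p = 0.0087). Its adjusted p reached 0.0512 without *Ehmt2*GKO replicate 5, and was above 0.01 without any other library but *Ehmt2*GKO replicate 4. *Kif26b* was the one member that did not pass the filter on low counts, with 0, 0 and 0 reads in control and 7, 16 and 9 in *Ehmt2*GKO libraries. Taking 3 reads per library as the limit for the control libraries, the mean normalised count in *Ehmt2*GKO oocytes was at least 3.81-fold higher. *Cdc6*, which licenses replication origins, rose from 575, 525 and 546 to 716, 967 and 961 normalised counts (0.59, SE 0.13, adjusted p = 6.78e-04). The other 3 Cdc genes that rose, *Cdc42se1*, *Cdc42se2* and *Cdc42bpb*, encode effectors of the small GTPase CDC42, which acts on the actin cortex, and have log2 fold changes of 0.42 to 0.52. All 3 were lost without control replicate 1 or *Ehmt2*GKO replicate 5, and *Cdc42se1* and *Cdc42bpb* also without control replicate 6 or *Ehmt2*GKO replicate 4. *Cdc42se2* was the second most abundant member per kilobase of exon, with 28300, 38144 and 42545 normalised counts in control and 45967, 56140 and 64512 in *Ehmt2*GKO libraries.

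The level of a transcript can be compared between genes only per length. Per kilobase of annotated exon, *Ccnb1* ranked first of the 44 genes in both groups, with 14910 ± 77.3 normalised counts per kilobase in control and 21120 ± 1788 in *Ehmt2*GKO oocytes (SD, n = 3 each). *Cdc42se2*, *Bub1b* and *Cenpe* followed in this order in both groups. *Ccnb3* ranked 19th in control with 250.3 ± 27.6 and 28th in *Ehmt2*GKO oocytes with 106 ± 10.6 normalised counts per kilobase. Its control level did not differ beyond the spread from that of *Cdc42se1*, next in order with 242 ± 5.94. *Anapc10* and *Anapc16* were the most abundant listed APC/C subunits per kilobase in control oocytes (706.5 ± 60.7 and 579 ± 87.1), and *Anapc1* (96.4 ± 5.19) the least abundant. The lengths take in every annotated exon of a gene, so a gene with many isoforms, such as *Anapc11*, has its level understated.

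Reads on the 44 genes made up 4.49% to 4.72% of the listed reads in control and 5.24% to 5.64% in *Ehmt2*GKO libraries. The 4 leading genes, *Ccnb1*, *Cdc42se2*, *Cenpe* and *Bub1b*, took 74.7% to 75.7% of these reads in control and 78.6% to 80.6% in *Ehmt2*GKO libraries. The other 40 genes together held 1.13% to 1.15% of the listed reads in control and 1.08% to 1.16% in *Ehmt2*GKO libraries, which overlap. The libraries of the 2 groups did not overlap in 42 of the 44 genes (95.5%), beside 96.1% of all listed genes. In each of these 42 genes the exact permutation test gave p = 0.10, two-sided, the smallest that 3 libraries against 3 can give. Within the groups, the median coefficient of variation of the normalised counts was 9.57% in control and 9.83% in *Ehmt2*GKO libraries. *Ehmt2*GKO replicate 5 was the highest of its group in 20 of the 43 tested genes and replicate 3 in 6, and replicate 3 was the lowest in 23.

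Of the 44 genes, 20 have an annotated gene overlapping on the opposite strand, by the span of the whole gene. Overlap of exons was not examined, and where exons overlap the reads of such pairs may not be told apart. The 44 genes lie on 17 chromosomes, with 5 each on chromosomes 8 and 11, and *Ccnb3* is the one on X.

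Partners of these genes in division that carry other names were taken from lists of textbook components. Their counts by direction stand beside 49.5% lower and 49.3% higher among all tested genes. Of 28 further kinetochore and chromosomal passenger genes, 5 are listed, of which 4 fell. These were *Hjurp*, the chaperone that loads CENP-A (log2 fold change -0.79, SE 0.11), *Birc5*, which encodes survivin (-0.70, SE 0.12), *Spdl1*, which brings dynein to kinetochores (-0.66, SE 0.10), and *Ska3*, of the outer kinetochore (-0.54, SE 0.14). The checkpoint kinase gene *Ttk* rose (0.33, SE 0.11), as *Bub1b* did. Of 11 condensin and chromosome structure genes, 2 are listed and both fell, *Ncapg*, of condensin I (-0.95, SE 0.12), and *Top2b*, a DNA topoisomerase (-0.68, SE 0.10). Of 18 cohesin genes, 2 are listed and both rose, *Stag2*, a cohesin subunit (0.46, SE 0.11), and *Esco2*, a cohesin acetyltransferase (0.41, SE 0.10).

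Of 11 further APC/C regulators, 2 are listed. *Mos*, whose kinase upholds the metaphase II arrest, rose (0.51, SE 0.13), and *Skp1a*, a subunit of the SCF ubiquitin ligase, fell (-0.48, SE 0.10). Of 42 regulators of cyclin-dependent kinases, 6 are listed, 3 higher and 3 lower. *Ensa*, whose phosphorylated product inhibits the phosphatase PP2A-B55, fell (-0.79, SE 0.17), and so did *Ppp2r2a*, which encodes a B55 subunit of that phosphatase (-0.38, SE 0.12). *Lin37* was the third to fall (-0.55, SE 0.18). The 3 higher ones were *Trp53* (0.56, SE 0.11), *Ppp2r5e* (0.46, SE 0.15) and *Rb1* (0.31, SE 0.10). Of 63 spindle assembly, centrosome and microtubule factors, 13 are listed, 9 of them lower and 4 higher. The lower ones included the dynein and dynactin genes *Dync1i2* (-0.93, SE 0.10), *Dctn4* (-0.97, SE 0.15) and *Dctn3* (-0.68, SE 0.19), and *Ckap5*, a microtubule polymerase gene (-0.49, SE 0.10). Of all genes on the division lists, only *Mapre3*, which encodes a protein of microtubule plus ends (1.03, SE 0.25), and *Ninl*, which encodes a centrosomal protein (1.43, SE 0.44), were called over 2-fold, both higher and both scarce. Among all tested genes 18.7% were called higher and 16.9% lower. All genes of these lists share the selection of the table, so the counts by direction describe the listed genes and not the pathways.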

How the data were processed

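The authors deposited whole-number read counts per gene in the 6 libraries, not normalized, beside their own fold change, log2 fold change, p and adjusted p, which were used only to see that every listed adjusted p was below 0.05. The submitters' processing notes name HISAT2, DESeq2 and the build GRCm38, and the counter and annotation are not given in the sources used here. The bisulfite libraries among the 17 samples were not analysed here. Genes and lists were chosen with earlier results of these data known.

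The test was edgeR's quasi-likelihood test (version 4.0.16, in R 4.3.3), with TMM factors, edgeR's filter at a minimum count of 10, and Benjamini-Hochberg adjustment over the tested genes. Each standard error is the absolute log2 fold change divided by the square root of F. Counting rises and falls at any fold was added after seeing the data. Alternatives used DESeq2 1.42.0, limma 3.58.1, other scalings, filters and thresholds, and each library left out. The fits were tested on simulated data. Named genes are every called member, the 2 highest and 2 lowest of each role and fixed regulators where listed, and others were chosen after their values were seen. GENCODE vM21 gave exons and overlaps, and blastn 2.17.0 gave copies (at least 95% identity over at least 50% of a transcript). Promoter windows are RefSeq's for GRCm38.p6. Exact permutation tests were run in Python 3.11.15. A further item is not reported here.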

Additional observations from a re-analysis of the deposited data

How the results depend on the processing

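The direction of all 43 tested members held in each of the 13 alternative fits, and 20 of the 42 passing members (8 higher and 12 lower) passed in every one. *Tuba3b*, *Ccnb3*, *Cenpw* and *Anapc11* were called over 2-fold in all 13. Against a fold of 2 in place of no change (edgeR's glmTreat), 0 members were called at an adjusted p below 0.01 and 0 of them lower, with 2 at an unadjusted p below 0.05 (*Ccnb3*, adjusted p = 0.0185, and *Tuba3b*, 0.0363). Without a filter on low counts, 1 member was called higher, which was *Kif26b*. The median log2 fold change of the members was -0.36, and -0.26 with median-ratio size factors, -0.27 with upper-quartile factors, -0.26 with DESeq2 and -0.38 to -0.28 when 1 library was left out. It lies between a rising and a falling cluster of genes and so moves with a few of them. The median over all tested genes was -0.32, and changed sign without the filter (0.31) and without any 1 control library (0.24 to 0.27). Over the protein-coding tested genes alone it was 0.33.

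Leaving out 1 library reduced the members with an adjusted p below 0.01 from 42 to between 25 and 35, and from 20 to between 10 and 16 for the higher genes. The lowest counts, 25 and 10, came without *Ehmt2*GKO replicate 5, and 13 and 12 genes stayed higher without control replicates 1 and 6. With fewer libraries the tests have less power, and these settings were counted at any fold after seeing the data. Called members numbered 4 to 7. The 7 members lost with median-ratio size factors and DESeq2 were among the smaller falls, with log2 fold changes of -0.56 to -0.34 as reported. No paired analysis was possible because no replicate number occurs in both groups. Scaling over selected genes, unknown total depth and few libraries limit every value here.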

Other observations

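The name rule also matched 2 listed genes that are not protein-coding and so were left out. *Ccnb1-ps*, a processed pseudogene of *Ccnb1*, had 833, 932 and 625 normalised counts in control and 1330, 1162 and 1016 in *Ehmt2*GKO libraries (log2 fold change 0.46, SE 0.15, adjusted p = 0.00746, edgeR). *Cep83os*, a long non-coding RNA gene, had 146, 143 and 145 in control and 82.4, 70.2 and 76.6 in *Ehmt2*GKO libraries (-1.01, SE 0.21, adjusted p = 4.34e-04, edgeR). Its groups did not overlap.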
